A study of Homo sapiens with 24 samples.

Results

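The genes described here were 7 members chosen by symbol from the 58721 genes counted in every library of A549 cells. They were the 3 fibrinogen chain genes FGA, FGB and FGG, the fibrinogen-like gene FGL1, the nuclear receptor gene HNF4A, the protease inhibitor gene SERPINA1 and the transcription factor gene STAT3. Each member was found under 1 Ensembl identifier in each of the 24 libraries. The list was drawn up because A549 cells express fibrinogen mRNA, so the levels of these genes and the proportions of the chains are given as a description with no test, and only the changes with treatment were tested. The members were also chosen with earlier results of these data known. Counts of members called are therefore set beside the share of all genes called, with no test of the list.

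A549 is an established cell line derived from a lung adenocarcinoma, and the study examined how the transcription factors MYBL2 and FOXM1 control its genes. Its RNA-seq of polyA-selected RNA is described here. The study also mapped where both factors bind in A549 cells by ChIP-seq, which was not used here. Cells were transfected with 25 nM siRNA against MYBL2 (siMYBL2, 4 libraries), against FOXM1 (siFOXM1, 4 libraries) or with a scrambled siRNA (siControl, 4 libraries that served both single knockdowns). A second experiment put siRNAs against both genes (siBoth, 3 libraries) beside a scrambled siRNA of its own (siControl_Both, 3 libraries). In the third experiment, cells were given 20 µM FDI-6, a small compound reported to block FOXM1 from binding DNA, for 24 h (FDI6, 3 libraries) or served as control (control_FDI6, 3 libraries). The study names these controls both as DMSO, the solvent, and as untreated cells. Control cells are labelled WT. The culture medium is given as DMEM or RPMI without naming which library had which, and the split of the siRNA dose between both targets in siBoth is not given in the sources used here. All cells were of 1 line, and the replicates are described as biological.

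Fibrinogen is a soluble plasma protein built from paired copies of the Aα, Bβ and γ chains, which FGA, FGB and FGG encode, and thrombin turns it into the fibrin of a clot. Hepatocytes make nearly all of the circulating protein, in an acute-phase response in which interleukin-6 acts through STAT3, while C/EBP and HNF4A proteins are among the factors that keep liver genes active. Epithelial cells of the lung and of several tumors, A549 among them, can also make fibrinogen.

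The 3 chain genes lie together on chromosome 4 of GRCh38. FGB (ENSG00000171564.11) occupies positions 154563011 to 154572807 on the plus strand, FGA (ENSG00000171560.14) positions 154583126 to 154590742 on the minus strand and FGG (ENSG00000171557.16) positions 154604134 to 154612967 on the minus strand. The canonical transcripts have 8 exons for FGB, 5 for FGA and 9 for FGG, and no annotated exon of another gene overlaps theirs. FGL1 (ENSG00000104760.16) is on chromosome 8, from 17864380 to 17910365 on the minus strand, HNF4A (ENSG00000101076.16) on chromosome 20, from 44355699 to 44432845 on the plus strand, SERPINA1 (ENSG00000197249.13) on chromosome 14, from 94376747 to 94390693 on the minus strand, and STAT3 (ENSG00000168610.14) on chromosome 17, from 42313324 to 42388540 on the minus strand. An unnamed gene on the opposite strand overlaps 4.2% of the exon bases of FGL1, and the strand setting of the counting is not given in the sources used here, so reads there cannot be told apart.

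The letters CTGGGA, the core of the interleukin-6 response element described for fibrinogen promoters, are shown because they are what the 3 chain promoters share in the window from 250 bases before to 50 bases after the start. The stretches of 30 bases below come from the RefSeq promoters of GRCh38.p14, read 5′ to 3′ on the strand of each gene, with the match in capitals.

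FGA: gagcaagaatttCTGGGAtaccaacagcat
FGB: aaataagctttgCTGGGAagatgttgctta
FGG: tgtgtgcaaaatCTGGGAacctgacagtat

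The first of these stretches is at chr4:154590852-154590881 on the minus strand, and its match begins 127 bases before the start of FGA. That of FGB is at chr4:154562856-154562885 on the plus strand, 143 bases before the start. That of FGG is at chr4:154612800-154612829 on the minus strand, 161 bases before the RefSeq start, and overlaps an exon annotated for a longer FGG transcript in GENCODE V44, while the other stretches overlap no annotated exon of their gene. FGG also has a match on the opposite strand.

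On either strand the same letters occurred in 33.3% of the 35116 RefSeq promoters of that length, and also in those of HNF4A, SERPINA1 and STAT3. TTGCNNAA, a C/EBP pattern, was found in the promoters of FGA and FGB and in 10.5% of all promoters, and the STAT pattern TTCNNNGAA in FGA and in 7.66% of all. The HNF4 half-site AGTCCA was found in SERPINA1 and in 11.8% of all. TTTGAA, the letters of the cell-cycle CHR element to which MYBL2 and FOXM1 complexes are known to be brought, was found in HNF4A and in 15.2% of all promoters, whereas the forkhead letters TGTTTAC, found in 3.42% of all, were in none of the members' promoters. The genes matched 1 or 2 promoters each. FGL1 had none in the table used.

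Between 16487394 and 30140550 read pairs per library were counted on genes. MYBL2 mRNA was at 4.1% of the control mean in siMYBL2, 4.82% in siBoth and 68.9% in FDI6. FOXM1 mRNA was at 9.54% in siFOXM1, 9.49% in siBoth and 76.3% in FDI6. FOXM1 was also at 59.4% of control in siMYBL2. The epithelial keratin genes KRT7, KRT8 and KRT18 were at 615, 1610 and 1020 CPM or more in every library. KRT19 was at 38.0 to 353 CPM, CDH1 at 9.31 to 91.0 CPM and EPCAM, also epithelial, at 1.66 to 37.8 CPM. The T cell gene CD3E had 0 reads in all 24. The leukocyte genes PTPRC and CD68 reached at most 0.231 and 0.193 CPM, while CD14 was at 1.86 to 14.8 CPM. Among fibroblast genes COL1A1 was at 4.87 to 57.9 CPM, and COL1A2, PDGFRB and DCN reached at most 0.871 CPM. The endothelial genes PECAM1, CDH5 and KDR reached at most 2.8, 2.1 and 0.585 CPM. Of 8 alveolar type II genes SFTPA1, SFTPB, SFTPC, SFTPD and NKX2-1 reached at most 0.369 CPM, LAMP3 2.87 CPM and NAPSA 3.05 CPM, whereas ABCA3 was at 53.7 to 126 CPM. The part of other cell types in the results was not tested. In the double knockdown experiment 7.684% to 10.926% of pairs were not aligned, against 1.729% to 3.031% in the other libraries. Levels are given in CPM, the counts of a gene brought to a common library size, with library sizes scaled by TMM over all 24 libraries.

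The fibrinogen chains were well expressed in A549 cells but at levels that differed several fold between control cultures. FGA was at 51.4, 67.2, 35.5 and 179.5 CPM in siControl replicates 1 to 4, at 209.1, 43.4 and 71.6 CPM in siControl_Both replicates 1 to 3, and at 19.6, 19.0 and 19.5 CPM in control_FDI6. FGB was at 77.1, 91.2, 53.5 and 346.3 CPM, at 282.6, 65.5 and 115.0 CPM, and at 21.3, 19.9 and 22.5 CPM in the same libraries. FGG was at 46.2, 78.7, 32.5 and 218.0 CPM, at 157.1, 29 and 58.9 CPM, and at 13.5, 11.6 and 12.7 CPM. Replicate 4 of siControl and replicate 1 of siControl_Both held the highest level of all 3 chains in their group, and the control_FDI6 libraries lay below every siRNA control. The experiments differ in handling and control treatment as well as in batch, and these cannot be told apart.

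**Figure D1:**
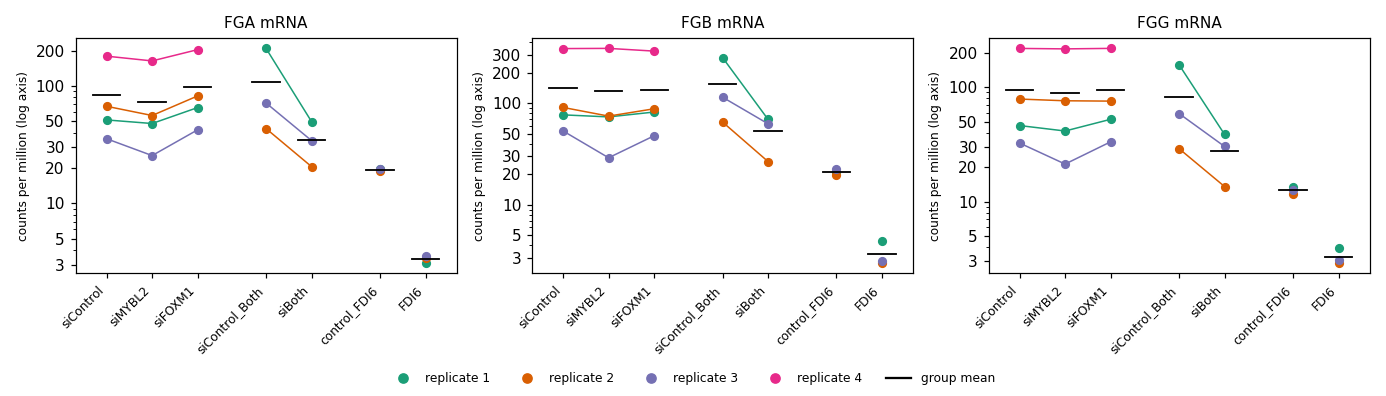
Levels of the FGA, FGB and FGG transcripts in all 24 libraries, in CPM on a log axis, by group, with 1 point per library coloured by replicate number and a black bar at the group mean. Lines join libraries with the same replicate number within the siRNA experiments. Replicate 4 was the highest library of siControl, siMYBL2 and siFOXM1 for each chain, and the FDI6 libraries were the lowest of all, at 2.70 to 4.39 CPM.

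The highest library of siControl exceeded the lowest 5.05-fold for FGA, 6.47-fold for FGB, 6.71-fold for FGG and 5.61-fold for FGL1, but only 1.90-fold for HNF4A and 1.07-fold for STAT3. On the log2(CPM + 1) scale the range of FGB within siControl was 2.67, larger than that of 99.8% of the 11369 genes that averaged at least 100 counts, whose median range was 0.29. The range of STAT3 was 0.099, larger than that of 5.9% of them. In control_FDI6 the chains varied little, and the highest FGA library exceeded the lowest 1.03-fold.

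Replicate 4 of siControl was 1.83 units on the log2(CPM + 1) scale above the mean of the other 3 siControl libraries for FGA, 2.25 for FGB, 2.13 for FGG, 2.03 for FGL1 and 0.83 for HNF4A. Several genes of the fixed lists moved the same way in that library, among them CP, which encodes the plasma copper carrier ceruloplasmin (2.36), and ANGPTL4, a secreted inhibitor of lipoprotein lipase with a fibrinogen-type domain (2.03). Others were lower there, among them PLAU, the urokinase gene (-1.90). These genes were named after their values were seen. The part that culture conditions play in the spread was not tested.

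Per kilobase of exon, FGB was the most abundant chain in siControl, at 32.5 CPM per kb on average, followed by FGG at 26.1 and FGA at 21.3. STAT3 was at 25.3 CPM per kb in the same libraries, FGL1 at 9.65, HNF4A at 3.43 and SERPINA1 at 0.306. Over all 24 libraries FGA made up 31.8% ± 4.3 (SD) of the sum of the 3 chains, FGB 37.8% ± 5.1 and FGG 30.4% ± 4.4, and single libraries ranged from 23.0% to 38.4% for FGA, 26.3% to 45.6% for FGB and 23.6% to 40.2% for FGG. With the lengths of the canonical transcripts in place of all exons the mean shares were 36.4%, 29.4% and 34.1%, so which chain ranked first depended on the length used.

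**Figure D2:**
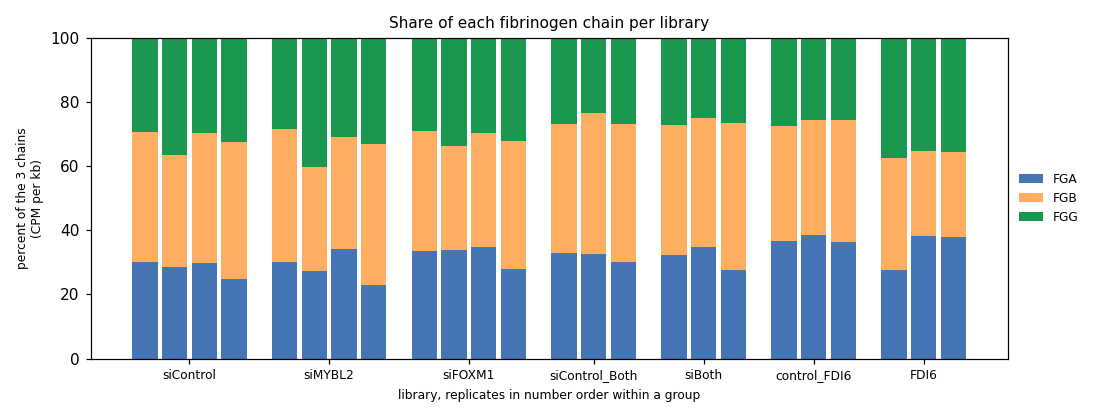
Share of FGA, FGB and FGG in the sum of the 3 chains in each of the 24 libraries, in percent of CPM per kilobase of exon, with libraries in the order of their replicate numbers within each group. FGG made up 35.2% to 37.6% of the sum in the FDI6 libraries and 25.6% to 27.5% in control_FDI6.

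The share of FGG was 36.2% ± 1.3 (SD, n = 3) in FDI6 and 26.3% ± 1.0 (SD, n = 3) in control_FDI6, and these did not overlap. FGB went from 36.5% ± 1.0 to 29.3% ± 4.8, also without overlap, though FDI6 replicate 1 at 34.8% came near the lowest control at 35.8%. Only 47 to 73 read pairs per chain lay behind the shares of each FDI6 library. In siBoth and siControl_Both the shares lay close together, with FGG at 26.3% ± 1.2 and 25.8% ± 1.9.

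Knockdown of MYBL2 left the fibrinogen chains within the spread between cultures. In siMYBL2 replicates 1 to 4, FGA was at 47.9, 56.0, 25.5 and 163.5 CPM, FGB at 73.6, 74.9, 29.1 and 347.9 CPM and FGG at 41.4, 76.1, 21.3 and 216.0 CPM. The groups overlapped for each chain, and replicate 4 was high in both. The log2 fold change was -0.16 for FGA (SE 0.63, adjusted p = 0.891), -0.08 for FGB (SE 0.80, adjusted p = 0.958) and -0.05 for FGG (SE 0.76, adjusted p = 0.970) by edgeR's quasi-likelihood test between the groups. The 95% interval for FGA ran from 0.336-fold to 2.39-fold, a range wide enough to hold a large change in either direction.

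Libraries with the same replicate number deviated together in the 3 siRNA comparisons, so the fit was repeated with a block for the replicate number. FGA was then at 0.865-fold of control (95% interval 0.792 to 0.943, adjusted p = 0.0095), a narrower interval than the unblocked fit gave, and lower in 4 of 4 pairs. Among all genes 29.8% were lower in every pair. FGB was at 0.841-fold (adjusted p = 0.0542) and FGG at 0.898-fold (adjusted p = 0.100), lower in 3 of 4 and 4 of 4 pairs. The pair with the largest difference was replicate 3, with log2 differences of -0.48 for FGA, -0.88 for FGB and -0.61 for FGG, and without that pair the blocked log2 fold change of FGA was -0.15 with an adjusted p of 0.0507.

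FGL1 encodes a liver-secreted protein with a fibrinogen-type domain that is known as a ligand of the T cell receptor LAG3. It was at 21.3, 18.6, 13.2 and 74.3 CPM in siControl and at 26.2, 20.0, 11.4 and 76.8 CPM in siMYBL2. The groups overlapped, and the log2 fold change was 0.11 (SE 0.67, adjusted p = 0.932). HNF4A, the receptor that keeps hepatocyte genes active, was at 27.5, 27.7, 31.9 and 52.4 CPM in siControl and 29.6, 26.4, 30.7 and 41.6 CPM in siMYBL2. Its log2 fold change was -0.10 (SE 0.23, adjusted p = 0.816), again with overlap.

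SERPINA1, the gene of alpha-1-antitrypsin, was scarce in these cells. It was at 1.34, 1.26, 0.819 and 2.58 CPM in siControl, from 23 to 61 counts, and at 2.12, 2.13, 1.62 and 4.75 CPM in siMYBL2. The groups overlapped, but each siMYBL2 library was above the siControl library with its number, by 0.66 to 0.98 log2 units. The log2 fold change was 0.86 (SE 0.43, adjusted p = 0.197) without the block and 0.84 (SE 0.16, adjusted p = 0.000811) with it, and SERPINA1 was called only in the latter. Among all genes 27.0% were higher in every pair.

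STAT3 was at 277.0, 294.9, 286.6 and 275.3 CPM in siControl and at 392.1, 395.3, 412.3 and 431.8 CPM in siMYBL2. Every siMYBL2 library was above every siControl library, as for 10.1% of all genes tested. The rise was 1.46-fold (95% interval 1.33 to 1.61, log2 fold change 0.55, SE 0.062, adjusted p = 0.000662). This passed the threshold on the adjusted p but not the 1.5-fold threshold of the call rule, while with upper-quartile scaling the log2 fold change was 0.60 and STAT3 was called.

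Of the 7 members, 0 were therefore called in siMYBL2, which asked for both an adjusted p under 0.05 and a change of over 1.5-fold, against 7.9% of all 16065 genes tested. By edgeR 1 member had an unadjusted p under 0.05, and DESeq2 also called 0. With the replicate block 1 member was called, against 12.4% of all genes.

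Knockdown of FOXM1 was compared with the same siControl libraries, so the values stand beside those of siMYBL2 and share their controls. FGA was at 65.5, 82.3, 42.3 and 204.0 CPM in siFOXM1, FGB at 82.2, 88.5, 48.0 and 327.0 CPM and FGG at 52.4, 75.5, 33.3 and 218.2 CPM. All 3 chains overlapped with siControl, and replicate 4 was again high. The log2 fold changes were 0.24 for FGA (SE 0.58, adjusted p = 0.931), -0.06 for FGB (adjusted p = 0.987) and 0.01 for FGG (adjusted p = 0.998).

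With the block FGA was 1.2-fold higher (95% interval 1.14 to 1.27, adjusted p = 6.32e-06) and higher in 4 of 4 pairs, which held for 19.0% of all genes. FGB was at 0.970-fold (95% interval 0.920 to 1.02) and FGG at 1.02-fold (95% interval 0.967 to 1.08), with adjusted p of 0.425 and 0.588. The interval of FGA lay above those of the other chains, though the difference between genes was not tested. FGA was below the fold threshold and not called.

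FGL1 was at 27.6, 17.7, 12 and 78.5 CPM in siFOXM1, with a log2 fold change of 0.10 (SE 0.68, adjusted p = 0.979). HNF4A was at 35.3, 32.6, 37.0 and 54.5 CPM, overlapping with siControl, with a log2 fold change of 0.20 (SE 0.23, adjusted p = 0.826) that became 0.21 with an adjusted p of 0.00259 under the block, higher in 4 of 4 pairs. SERPINA1 was at 1.35, 2.18, 0.720 and 3.19 CPM, higher in 3 of 4 pairs (log2 fold change 0.33, SE 0.47, adjusted p = 0.867).

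STAT3 was at 336.3, 315.9, 359.6 and 317.6 CPM in siFOXM1, above every siControl library, as for 4.01% of all genes. The rise was 1.18-fold (log2 fold change 0.24, SE 0.062, adjusted p = 0.117), with an adjusted p of 9.15e-06 under the block and 0.025 by DESeq2. Among the 7 members 0 were called by edgeR, with or without the block, and 0 by DESeq2, and 1 had an unadjusted p under 0.05 by edgeR. Of all 15892 genes 0.667% were called, or 2.52% with the block.

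The effects of both single knockdowns were compared directly in 1 fit of the 12 libraries. STAT3 was 0.30 log2 units higher in siMYBL2 than in siFOXM1 (SE 0.062, adjusted p = 0.00343), a 1.23-fold difference. The other members had adjusted p from 0.374 to 0.996, and 0 of the 7 passed both thresholds, while 10.3% of all genes did. By edgeR 1 member had an unadjusted p under 0.05. With the block the difference for FGA was -0.48 (SE 0.057, adjusted p = 1.12e-06) and that for HNF4A was -0.30 (SE 0.058, adjusted p = 0.000301), both below the fold threshold, and 14.6% of all genes were called.

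The double knockdown went with lower fibrinogen mRNA in each pair of cultures. FGA was at 49.6, 20.5 and 34.2 CPM in siBoth replicates 1 to 3, FGB at 69.5, 26.7 and 62.9 CPM and FGG at 38.6, 13.5 and 30.3 CPM. FGA and FGB overlapped between siBoth and siControl_Both, since replicate 2 of the controls was low, and so did FGG. Within pairs FGA was at 0.24, 0.47 and 0.48 of its control, FGB at 0.25, 0.41 and 0.55 and FGG at 0.25, 0.47 and 0.52. Each chain was thus lower in 3 of 3 pairs, as were 33.0% of all genes. In bulk RNA, fewer cells that express a gene and less of its mRNA per cell cannot be told apart.

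The log2 fold change was -1.60 for FGA (SE 0.55, adjusted p = 0.0933), -1.51 for FGB (SE 0.53, adjusted p = 0.0973) and -1.54 for FGG (SE 0.58, adjusted p = 0.122). None of the 3 passed the threshold. With the replicate block the values were -1.41 for FGA (SE 0.14, adjusted p = 1.35e-06), -1.38 for FGB (SE 0.14, adjusted p = 1.5e-06) and -1.37 for FGG (SE 0.14, adjusted p = 2.2e-06), and all 3 were called. The pair of replicate 1 had the largest difference, and without it the blocked log2 fold change of FGA was -1.05, that of FGB -1.05 and that of FGG -1.0, still called. The upper-quartile scaling raised the share of called genes that were higher in siBoth from 43.5% to 59.4%, and the chains stayed lower under it.

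FGL1 was at 50.3, 21.5 and 30.6 CPM in siControl_Both and at 21.4, 13 and 21.3 CPM in siBoth. Every siBoth library was below every control, which held for 20.6% of all genes, though the highest siBoth library and the lowest control nearly met. Its log2 fold change was -0.85 (SE 0.31, adjusted p = 0.107), or -0.81 with the block (SE 0.12, adjusted p = 5.3e-05), and by DESeq2 the adjusted p was 0.0188. HNF4A was at 39.3, 26.4 and 32.9 CPM in the controls and at 21.5, 22.7 and 23.2 CPM in siBoth, also without overlap. It was at 0.698-fold of control (log2 fold change -0.52, SE 0.14, adjusted p = 0.050), a change below the fold threshold with or without the block, though HNF4A was called when siControl_Both replicate 2 was left out (-0.66, adjusted p = 0.0291).

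SERPINA1 was at 7.24, 1.70 and 3.65 CPM in siControl_Both and at 2.75, 3.04 and 2.38 CPM in siBoth, lower in 2 of 3 pairs (log2 fold change -0.59, SE 0.45, adjusted p = 0.419). STAT3 was at 348.8, 318.4 and 305.9 CPM in the controls and 393.7, 378.1 and 366.7 CPM in siBoth. All siBoth libraries were above all controls, which held for 14.7% of genes, and the rise was 1.19-fold (log2 fold change 0.25, SE 0.085, adjusted p = 0.087, or 0.00738 with the block).

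By edgeR 0 of the 7 members were called in siBoth, 6 had an unadjusted p under 0.05, and DESeq2 called 1, FGL1. With the block 4 were called, all lower. Of all 15812 genes 6.44% were called without the block (2.8% higher, 3.64% lower) and 11.7% with it (6.62% higher, 5.08% lower). Set against siMYBL2 in 1 fit of the 18 siRNA libraries, the effect of siBoth on the chains was lower by 1.22 log2 units for FGA (adjusted p = 0.000118), 1.14 for FGB (adjusted p = 0.000922) and 1.24 for FGG (adjusted p = 0.000267) with the block. Without it the same differences had adjusted p of 0.761, 0.824 and 0.810 and 0 members were called, with 1 at an unadjusted p under 0.05. Of all genes 1.83% and 0.15% were called in these fits. These effects were measured in separate experiments with separate controls.

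**Figure D3:**
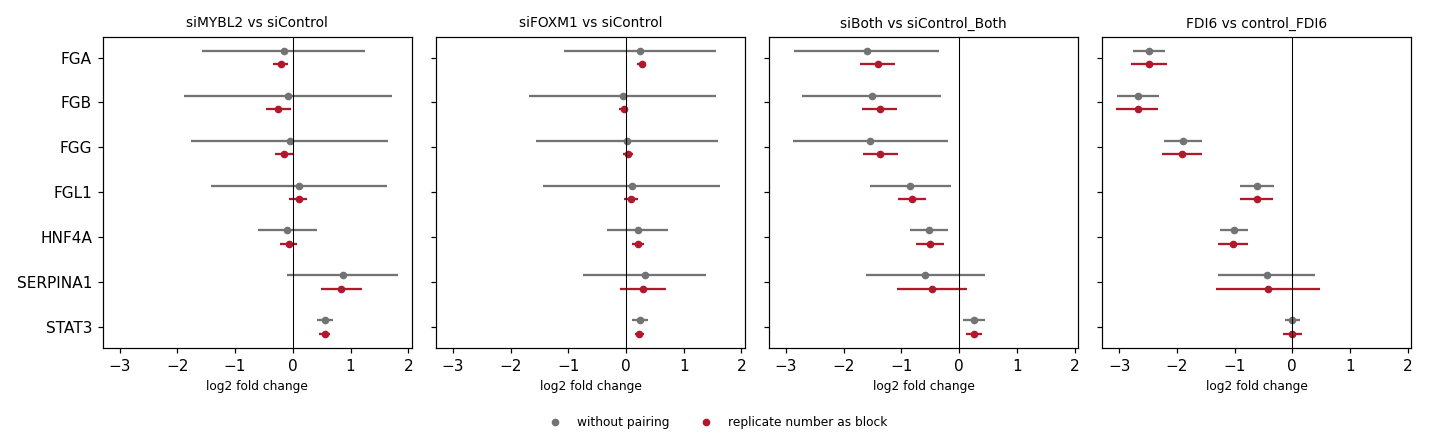
Log2 fold changes of the 7 members in the 4 comparisons, with 95% confidence intervals from edgeR, fitted without pairing (grey) and with a block for the replicate number (red). The intervals of the chains shrank with the block in the 3 siRNA comparisons, where those for FGA went from -1.57 to 1.25 to -0.34 to -0.08 in siMYBL2, and hardly moved with FDI6.

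FDI-6 treatment lowered all 3 fibrinogen chains. FGA was at 3.12, 3.45 and 3.59 CPM in FDI6 replicates 1 to 3, FGB at 4.39, 2.70 and 2.78 CPM and FGG at 3.91, 2.93 and 3.10 CPM. Every FDI6 library was below every control_FDI6 library, and 47 to 73 read pairs lay behind each FDI6 value against 235 to 418 behind each control value. FGA was at 0.179-fold of control (95% interval 0.148 to 0.215, log2 fold change -2.49, SE 0.12, adjusted p = 1.24e-07). FGB was at 0.157-fold (95% interval 0.122 to 0.201, adjusted p = 5.81e-07). FGG was at 0.268-fold (95% interval 0.213 to 0.337, adjusted p = 4.26e-06), with an interval that lay above that of FGB and overlapped only just with that of FGA, while the difference between chains was not tested.

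FGL1 was at 16.0, 12.7 and 16.7 CPM in control_FDI6 and at 9.19, 9.37 and 10.5 CPM in FDI6. It fell to 0.652-fold (log2 fold change -0.62, SE 0.13, adjusted p = 0.00383) with no overlap between the groups. Its fold change lay near the 1.5-fold threshold, and it was no longer called without FDI6 replicate 1 (-0.57), control_FDI6 replicate 1 (-0.58) or control_FDI6 replicate 3 (-0.54). HNF4A was at 38.8, 34.7 and 33.0 CPM in the controls and at 17.3, 15.1 and 19.5 CPM in FDI6. It fell to 0.495-fold (95% interval 0.417 to 0.587, log2 fold change -1.01, SE 0.11, adjusted p = 4.63e-05), also without overlap.

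SERPINA1 was at 0.757, 0.779 and 1.40 CPM in control_FDI6 and 0.601, 0.862 and 0.653 CPM in FDI6, from 10 to 26 read pairs. At that depth no change was detectable (0.737-fold, 95% interval 0.413 to 1.31, adjusted p = 0.388). STAT3 was at 238.2, 241.0 and 230.3 CPM in the controls and 234.9, 240.3 and 222.7 CPM in FDI6. The groups overlapped and the ratio was 0.999 (95% interval 0.914 to 1.09, adjusted p = 0.987), on the log2 scale the narrowest interval of the 7 members with FDI6.

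Thus 5 of the 7 members were called with FDI6, all lower, against 13.8% of all 15240 genes called and 5.77% called lower. The same 5 were the members that lay wholly below their controls, as did 27.0% of all genes. The list was chosen with earlier results of these data known, so these counts are descriptions. When the effect of FDI6 was compared with that of siFOXM1 in 1 fit, the difference was -2.73 log2 units for FGA (SE 0.84, adjusted p = 0.0315) and -1.22 for HNF4A (SE 0.31, adjusted p = 0.0129). For FGB it was -2.62 (SE 1.04, adjusted p = 0.0882) and for FGG -1.92 (SE 1.02, adjusted p = 0.198), which did not pass. With a block by number in each experiment all 3 chains, FGL1 and HNF4A were called in this comparison. That block also pairs the FDI6 libraries by number, although their numbers were not taken as pairs. Of all genes 11.5% were called, or 16.8% with the block. With 1 library left out, the difference for FGA ranged from -3.44 to -2.10 and its adjusted p from 0.00194 without siControl replicate 4 to 0.0833 without FDI6 replicate 1, and it was no longer called in 8 of the 14 such fits.

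**Figure D4:**
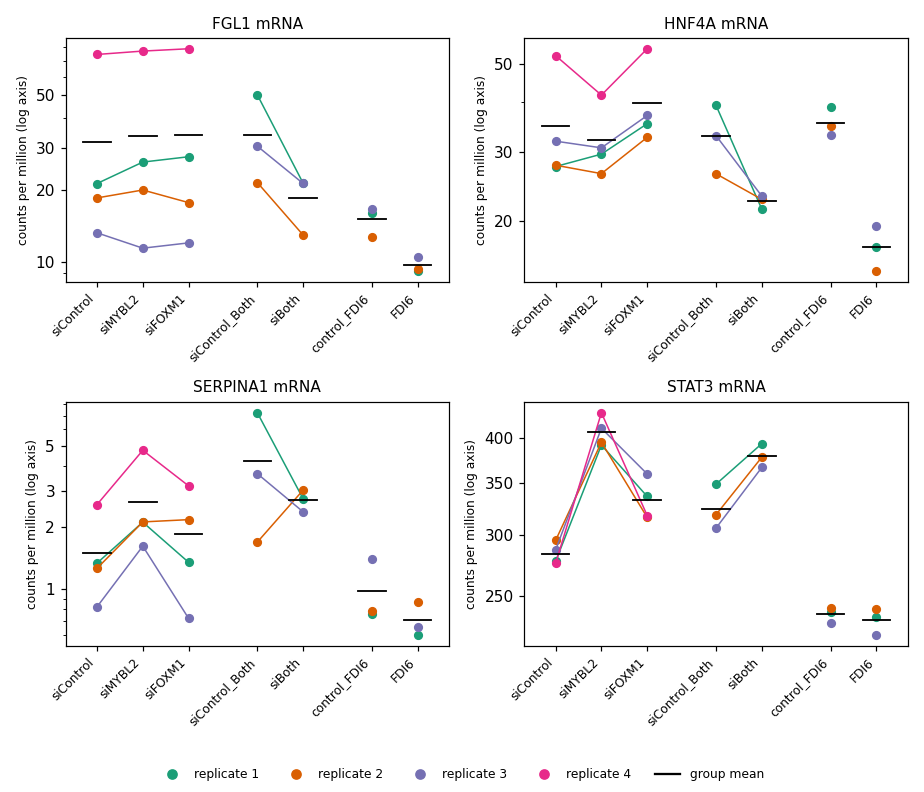
Levels of FGL1, HNF4A, SERPINA1 and STAT3 in all 24 libraries, in CPM on a log axis, by group, with 1 point per library coloured by replicate number, a black bar at the group mean and lines between same-numbered libraries of an siRNA experiment. STAT3 in siMYBL2 (392.1 to 431.8 CPM) lay above siControl (275.3 to 294.9 CPM), and HNF4A in FDI6 (15.1 to 19.5 CPM) lay below its controls (33.0 to 38.8 CPM).

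Ordered by their group means, the 3 chains were lowest in FDI6, next in control_FDI6 and then in siBoth. FDI6 lay wholly below control_FDI6, as did 27.0% of all genes. For FGG the lowest siBoth library and the highest control_FDI6 library nearly met, at 13.54 and 13.47 CPM. The groups come from separate experiments, so treatment and experiment cannot be told apart in this order. The means of the other 4 groups lay between 73.2 and 108.0 CPM for FGA, 131.4 and 154.3 CPM for FGB and 81.7 and 94.9 CPM for FGG, and all neighbours among them overlapped, as did siBoth with the group next above it. HNF4A ran from 17.3 CPM in FDI6 through 22.5 CPM in siBoth to 39.8 CPM in siFOXM1. STAT3 was highest in siMYBL2 at 407.9 CPM and siBoth at 379.5 CPM, which overlapped, and lowest in control_FDI6 at 236.5 CPM and FDI6 at 232.7 CPM, which also overlapped.

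Genes that stand near the fibrinogen cluster were measured in the same libraries. Of 13 neighbours within 250 kb, 1 or 2 passed the filter in each comparison, 0 were called by edgeR or DESeq2 and 0 had an unadjusted p under 0.05 without the block, while with it 1 had one in siBoth. PLRG1, a splicing factor gene next to FGB, had log2 fold changes of -0.02 in siMYBL2, -0.04 in siFOXM1, -0.02 in siBoth and 0.07 in FDI6. Of 14 neighbours of SERPINA1 within 250 kb, 3 were tested in siMYBL2 and 2 were called higher, beside 4.38% of all genes. They were SERPINA5, which encodes the protein C inhibitor (log2 fold change 1.44, adjusted p = 0.0332), and IFI27L2, an interferon-inducible family member (0.71, adjusted p = 0.00166). SERPINA5 averaged 28.9 counts there, below the 100 counts asked of named genes, and was named after its values were seen. IFI27L2 was also called higher in siBoth (0.79, adjusted p = 0.0108), as 1 of 4 neighbours tested, beside 2.8% of all genes. In FDI6 it was called in the opposite direction (-0.79, adjusted p = 0.00218), as 1 of 3 tested, beside 5.77% of all genes called lower. In siFOXM1 it had a log2 fold change of 0.11 (adjusted p = 0.794), and 0 of 3 neighbours were called.

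Around the members, 6 lists of related genes with 120 entries in all were followed through the same fits. They gave the setting of the members and were not chosen for how their genes moved, although earlier results of these data were known. Among 16 hepatocyte-type transcription factors all 16 passed the filter in the siRNA comparisons. There 1 rose and 1 fell in siMYBL2, beside 4.38% and 3.52% of all genes. In siFOXM1 0 were called by edgeR or DESeq2 (1 at an unadjusted p under 0.05), beside 0.667% of all genes by edgeR. In siBoth 1 fell, beside 3.64% of all genes, and with the block 1 rose and 3 fell, beside 6.62% and 5.08%. In FDI6 1 rose and 4 fell among 14 tested. Of all genes 8.0% rose and 5.77% fell with FDI6. The median log2 fold change in FDI6 was -0.27, beside -0.01 for all genes.

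With FDI6 the largest rise among the factors with a mean of at least 100 counts was that of NR5A2, a nuclear receptor gene (log2 fold change 0.80, adjusted p = 0.000157), and the largest fall that of CEBPD, a C/EBP factor induced in the acute phase (-0.96, adjusted p = 4.85e-05).

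Most of the 20 liver plasma protein genes were too low to test, and 6 to 9 passed the filter. In siMYBL2 2 of 8 rose and 0 fell (4 and 1 with the block), beside 4.38% and 3.52% of all genes (7.68% and 4.71% with the block), with a median log2 fold change of 0.59 beside 0.01. In FDI6 0 of 6 rose and 4 fell, beside 8.0% and 5.77% of all genes, with a median of -0.83 beside -0.01. RBP4, which encodes the plasma carrier of retinol, rose in siMYBL2 (0.89, adjusted p = 0.0309), and VTN, which encodes the adhesive plasma protein vitronectin, fell in FDI6 (-0.97, adjusted p = 0.000484). In siFOXM1 0 of 9 and in siBoth 0 of 8 were called by edgeR or DESeq2 or had an unadjusted p under 0.05. With the block 2 rose and 2 fell in siBoth, beside 6.62% and 5.08% of all genes.

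Of 16 acute-phase protein genes 2 to 6 could be tested. LBP, which encodes the lipopolysaccharide-binding protein, fell in siBoth (-0.98, SE 0.25, adjusted p = 0.0411) as the only gene of the list called there, where 3.64% of all genes fell. By edgeR and DESeq2 0 were called in the other comparisons, and 1 had an unadjusted p under 0.05, in siMYBL2. With the block 1 rose there, beside 7.68% of all genes. With the block 4 of 6 rose and 2 fell in siBoth, beside 6.62% and 5.08% of all genes. The median there was 0.66, beside 0.02 for all genes. SAA1 (0.65), SAA2 (0.68), HPX (1.22) and LRG1 (0.84) rose, while LBP (-1.01) and CP (-1.11, adjusted p = 7.25e-07) fell. All of these but LBP were named after their values were seen.

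Among 29 genes of coagulation and fibrinolysis 16 or 17 were tested. PLAT, the tissue plasminogen activator gene, rose in siMYBL2 (log2 fold change 1.37, SE 0.22, adjusted p = 0.00341) and in siBoth (1.5, SE 0.19, adjusted p = 0.00278). It was the only 1 of 17 called in either, where 4.38% and 2.8% of all genes rose. With the block 3 rose and 1 fell in siMYBL2, beside 7.68% and 4.71% of all genes, and 2 rose in siBoth, beside 6.62%. In siFOXM1 0 of 17 were called by edgeR or DESeq2 (2 at an unadjusted p under 0.05). In FDI6 7 of 16 rose and 1 fell, beside 8.0% and 5.77% of all genes, with a median of 0.33 beside -0.01. PLAU rose the most, from 57.6 ± 4.6 to 160.8 ± 9.2 CPM (SD, n = 3; 1.5, adjusted p = 2.35e-07), and its receptor gene PLAUR (1.16) and THBD, the thrombomodulin gene (1.05), were also called. The last 2 genes were named after their values were seen. Among the 19 genes with a fibrinogen-type domain 6 were tested in each comparison, and TNXB, a tenascin gene also named after its values were seen, was called higher in siMYBL2 (1.62, adjusted p = 0.00387) and siBoth (1.30, adjusted p = 0.0263). It was the only 1 of the 6 called in either, beside 4.38% and 2.8% of all genes called higher. In siFOXM1 and FDI6 0 of the 6 were called by edgeR or DESeq2, with 0 and 2 at an unadjusted p under 0.05.

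**Figure D5:**
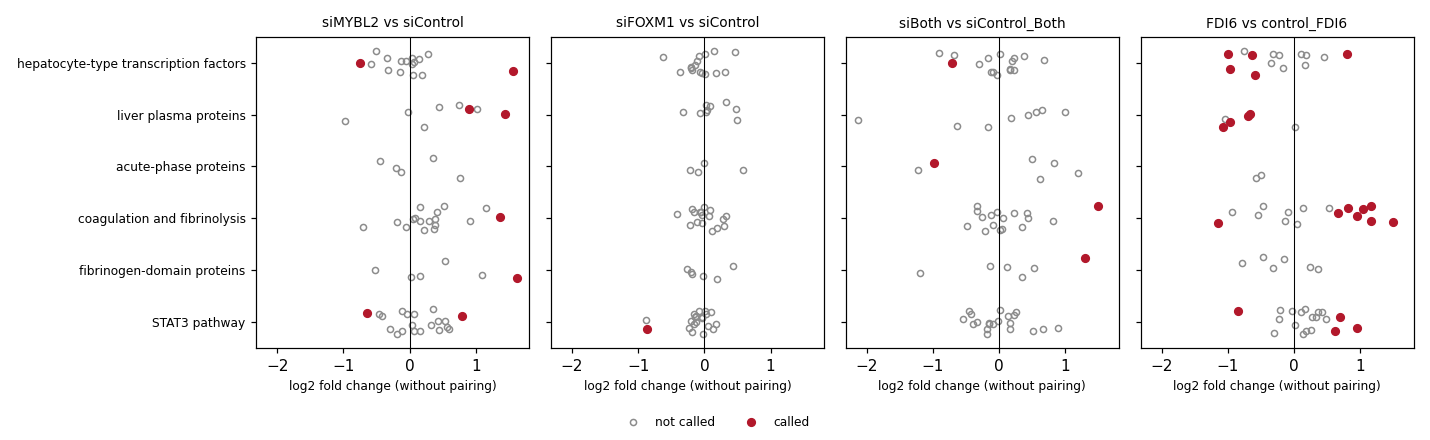
Log2 fold changes without pairing for each tested gene of the 6 lists in the 4 comparisons, with called genes (adjusted p under 0.05, change over 1.5-fold) as filled red points, others as open grey points, and a vertical jitter that carries no value. With FDI6, 7 of 16 coagulation and fibrinolysis genes were called higher and 4 of 6 liver plasma protein genes lower, beside 8.0% and 5.77% of all genes.

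Of the 20 genes of the STAT3 pathway 19 or 20 were tested. In siMYBL2 1 of 20 rose and 1 fell, shares close to the 4.38% and 3.52% of all genes. They were STAT5A, which encodes a related signal transducer (0.79, SE 0.19, adjusted p = 0.0189), and MYC, a growth-promoting target (-0.65, SE 0.14, adjusted p = 0.0151). In siFOXM1, where 0.0755% of all genes rose and 0.591% fell, 1 gene of the list was called, STAT5B, which fell from 80.4 ± 6.9 to 43.8 ± 1.6 CPM (SD, n = 4; -0.87, SE 0.068, adjusted p = 0.000515). In siBoth 0 of 20 were called by edgeR without the block (6 at an unadjusted p under 0.05). With it 1 rose, beside 6.62% of all genes, and DESeq2 called 1. In FDI6 3 of 19 rose, beside 8.0% of all genes, and 1 fell, beside 5.77%. Those that rose were STAT5A (0.96, adjusted p = 0.000393), the interleukin-6 receptor gene IL6R (0.62) and its signalling partner IL6ST (0.69), and the one that fell was the feedback inhibitor gene CISH (-0.84), the last 3 named after their values were seen.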

How the data were processed

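RNA-seq of A549 cells gave 24 libraries, whose groups and replicate numbers came from the sample labels. The authors used Trim Galore for trimming, STAR for alignment to hg38 and HTSeq with the GENCODE V29 annotation for counting. The deposited values are raw counts of read pairs per gene, with HTSeq's totals of pairs left out, which were kept out of library sizes and tests. Of all pairs, 7.884% to 11.205% were ambiguous between genes. Software versions and the strand setting are not given in the sources used here. The labels speak of RNA from 3 replicates per condition, while the single knockdowns have 4 libraries each, and no 2 libraries of a group agreed within sampling noise. Where cultures were not separate, p-values measure technical spread.

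Identifiers were matched without version to GENCODE V44 (58207 found, 514 not). The 2 groups of a comparison were fitted together, without other libraries, by edgeR 4.0.16 in R 4.3.3 (TMM, edgeR's low-count filter, quasi-likelihood test, two-sided, Benjamini-Hochberg adjustment over all genes tested), and a call asked for both an adjusted p under 0.05 and a change of over 1.5-fold. Standard errors are the log2 fold change over the square root of F. Lengths per kb are unions of annotated exons. The fit was checked on simulated data.

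Same-numbered libraries correlated at 0.54 to 0.91 in their deviations from the group means in the 3 siRNA comparisons (at least 50 counts in every library), so the replicate block is given beside results it changes. With FDI6 the correlations ran from -0.29 to 0.16 and the numbers were not taken as pairs.

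Members and lists were chosen with earlier results of these data known. Named genes were the members, MYBL2 and FOXM1, the called gene of each list with the largest rise or fall at a mean of at least 100 counts, list genes called in 3 or more comparisons, and the 5 genes most like the chains. Some genes that this rule names, and 1 of the motifs searched, are not reported here. Other settings tried were glmTreat, a filter of 10 counts per library, no filter, upper-quartile or RLE scaling, DESeq2 1.42.0, all 12 single-knockdown libraries together, the block, and each library left out. Leaving out each pair under the block was added after the data were seen.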

Additional observations from a re-analysis of the deposited data

Results flagged for a closer look

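In groups of 4 libraries, a single library stood far from the other 3 in 5 of 21 tests on the members. Chance alone raises this flag in about 5% of such groups if values are normally distributed. The flag was taken on CPM, and whether CPM follow that distribution was not tested. FGB was at 347.9 CPM in siMYBL2 replicate 4, 327.0 CPM in siFOXM1 replicate 4 and 346.3 CPM in siControl replicate 4, and the next highest libraries of these groups were at 74.9, 88.5 and 91.2 CPM. FGL1 was at 74.3 CPM in siControl replicate 4, with the next library at 21.3 CPM, and SERPINA1 was at 4.75 CPM in siMYBL2 replicate 4, with the next at 2.13 CPM. All 5 were replicate 4, the only replicate number that the other experiments lack. The libraries share a number, so these flags are not independent of each other.

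Effects of a treatment differed in 3 tests of the difference itself by edgeR. The effect on STAT3 was 0.30 log2 units higher in siMYBL2 than in siFOXM1 (adjusted p = 0.00343). That on FGA was lower with FDI6 than in siFOXM1 by -2.73 (adjusted p = 0.0315), and that on HNF4A by -1.22 (adjusted p = 0.0129). The FDI6 and siFOXM1 effects come from separate experiments with other controls, and treatment and experiment cannot be told apart.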

How the results depend on the processing

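The fall of FGA, FGB, FGG and HNF4A with FDI6 was called under all 7 other settings and with each library left out, and the replicate block called 5 members there too. With glmTreat, which tests against the 1.5-fold threshold itself, FGL1 was not called. Members called with a library left out ranged from 4 to 5.

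In siMYBL2 the count of members called was 1 with upper-quartile scaling, 1 with the replicate block and 1 in each blocked fit without 1 pair, against 0. In siBoth it was 1 by DESeq2, 4 without the low-count filter, 4 with the replicate block, 4 to 6 in blocked fits without 1 pair, and 0 to 1 with 1 library left out. The difference between siBoth and siMYBL2 gave 5 called members with the block, against 0, and that between FDI6 and siFOXM1 gave 4 without the filter, 5 with the block and 1 to 4 with 1 library left out, against 2. The causes were not tested.

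Genes called numbered 1269 in siMYBL2 (1991 with the block, 199 by glmTreat), 106 in siFOXM1 (401 with the block, 162 by DESeq2, 14 by glmTreat, 56 to 115 with 1 library left out), 1019 in siBoth (1849 with the block, 1545 without the filter, 128 by glmTreat, 587 to 1097 with 1 library left out) and 2098 with FDI6 (2013 with the block, 496 by glmTreat). The share called higher in the difference between FDI6 and siFOXM1 was 63.7% with TMM and 51.4% with upper-quartile scaling.

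Without the block, leaving out 1 library turned the sign of several small changes. In siMYBL2 the log2 fold change ranged from -0.94 to 0.53 for FGA, -1.25 to 0.85 for FGB, -1.01 to 0.78 for FGG, -0.71 to 0.95 for FGL1 and -0.25 to 0.16 for HNF4A, and that of FGG was 0.00 with upper-quartile scaling. In siFOXM1 it ranged from -0.39 to 0.94 for FGA, -0.96 to 0.89 for FGB, -0.80 to 0.86 for FGG, -0.73 to 0.95 for FGL1 and -0.07 to 0.72 for SERPINA1. The extremes came from leaving out replicate 4. In siBoth SERPINA1 ranged from -0.97 to 0.06, with FDI6 STAT3 ranged from -0.03 to 0.02, and the difference between siMYBL2 and siFOXM1 for FGA ranged from -1.18 to 0.22. In blocked fits without 1 pair, FGG and FGL1 were at -0.01 in siFOXM1 without pair 1, SERPINA1 in siBoth between -1.03 (called, without pair 2) and 0.09 (without pair 1) and STAT3 between -0.01 and 0.00 with FDI6. Depth limits SERPINA1 most, with 10 to 157 read pairs per library.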

Other observations

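The genes whose levels followed the fibrinogen chains most closely over the 24 libraries, among 11369 genes averaging at least 100 counts, were ANXA13, TM4SF20, C5, GPI and CDH1. Likeness was Pearson's r of log2(CPM + 1), less the mean of the controls of the same experiment, with the mean of the 3 chains. It was 0.937 for ANXA13, an annexin gene of intestinal and kidney epithelium, 0.933 for TM4SF20, 0.930 for C5, which encodes a complement component made by the liver, 0.927 for GPI, which encodes a glycolytic enzyme, and 0.927 for CDH1, the E-cadherin gene. FGL1 had an r of 0.878 (rank 31), HNF4A of 0.856 (rank 49) and STAT3 of 0.09. The points share libraries, replicate numbers and controls, so these values describe the 24 libraries only.

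ANXA13 was at 42.8 ± 26.0 CPM (SD, n = 4) in siControl and ranged there from 19.9 to 79.6 CPM. It was at 9.45 ± 2.21 CPM in siBoth and 25.2 ± 21.4 CPM in siControl_Both, and at 4.63 ± 1.24 CPM in FDI6 and 10.5 ± 0.2 CPM in control_FDI6 (SD, n = 3). CDH1 ranged from 24.7 to 88.0 CPM in siControl, and was at 10.9 ± 2.2 CPM in FDI6 and 31.0 ± 1.1 CPM in control_FDI6 (SD, n = 3).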
